A study of Mus musculus with 6 samples.

Results

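Antisense RNAs are described here: genes that are transcribed from the DNA strand opposite to another gene, in fibroblasts kept at normal or low oxygen. The members are the rows that the authors' gene table classes as antisense RNA, that carry a single gene name and whose mean level across the conditions is 0.5 FPKM or more. FPKM is the number of sequenced fragments scaled to transcript length and library size. Symbols that start with Snhg, the name given to host genes of small nucleolar RNAs, and the imprinted antisense RNAs Airn, Kcnq1ot1 and Nespas were left out. Host genes under other names were not looked for. This gave 178 members of the table's 53207 rows, taken from 2670 antisense rows of any level, of which 1561 are listed at 0 in both conditions. The members nearest to the limit were Gm26826 at a mean of 0.509 FPKM and Dnm3os at 0.514 FPKM, and the rows nearest below it were Gm15998, just short of the limit, and Phf2os1 at 0.496 FPKM.

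The cells were wild-type mouse embryonic fibroblasts immortalised with SV40, a virus whose large T antigen keeps primary cells dividing. Normoxia was 21% oxygen and hypoxia was 0.5% oxygen, each for 16 h, and each condition had 3 biological replicates, 6 samples in all. The libraries were strand-specific and made from poly-A selected RNA, so antisense RNAs that lack a poly-A tail enter them poorly. The title places the data in a study of a mitochondrial protease, YME1L, and of lipid and mTORC1 signalling. The labels name no clone or passage, and 1 immortalised line is a limited model of fibroblasts in a tissue.

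An antisense RNA can leave from its own promoter, from a promoter shared with a gene that points the other way, or from inside the gene it opposes. Many are spliced and polyadenylated like mRNAs but are kept in the nucleus and broken down quickly by the RNA exosome, a complex of nucleases. Some are known to change the transcription, chromatin, splicing or stability of the partner gene, which is called the sense gene, and others have no known role. When oxygen falls, hypoxia-inducible transcription factors bind a short core motif in DNA and raise genes of glycolysis, blood vessel growth and pH control. Antisense RNAs lie inside or beside several of those genes.

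The authors deposited 1 FPKM per condition, which combines the 3 replicates, so values of single samples, standard deviations and sequencing depth are not given here. A gene is called higher or lower in hypoxia where the q-value of the authors' deposited table is below 0.05, and every statement about error rests on that q. All 6 low-oxygen genes looked at as a check of the conditions were called higher, from Vegfa at 101 FPKM under normoxia and 508 under hypoxia to Ndrg1 at 72.8 and 930 FPKM. Of 8 fibroblast markers, 7 could be measured alone and all 7 were expressed, among them the collagen gene Col1a1 at 463 and 451 FPKM. Of these 7, Vim and Fn1 were called higher, and 4 were called lower: Col1a2 at 140 and 91.7 FPKM, Col3a1 at 328 and 182 FPKM, Pdgfrb at 10.9 and 6.58 FPKM, and Thy1 at 8.65 and 5.72 FPKM. Endothelial markers were at or below 0.0906 FPKM, and of the leukocyte markers Adgre1 was listed at 0 while Cd68 was called higher, at 1.32 and 2.27 FPKM. Of the epithelial keratin genes Krt18 was called higher, at 313 and 443 FPKM, and Krt8 lower, at 28.3 and 10.1 FPKM. The epithelial genes Cdh1 and Epcam were at 3.76 to 5.97 FPKM, and the muscle gene Des was at 11.0 and 9.46 FPKM. In such bulk samples, fewer cells of a type and less RNA per cell cannot be told apart.

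The sources used here do not state whether the authors' counting used the strand. Without it, reads of an antisense RNA and of its sense gene cannot be told apart where their exons overlap. The 15 rows that carry the symbol of a protein-coding gene, with exactly that gene's values, show another way in which members are not independent of other genes. Their identifiers belong to antisense genes in the GENCODE M21 annotation, such as Tomm6os under the name Frs3, Tmem147os under Sbsn, and both Zfhx2os and Gm20687 under Thtpa. They amount to 14 measurements, since the last pair shares 1. Sbsn was listed at 29.8 FPKM under normoxia and 50.7 under hypoxia, Ccdc115 at 8.94 and 19.3 FPKM, and Thtpa at 11.9 and 5.40 FPKM, and all 3 were called. Such values describe the joined locus and not the antisense RNA, so the results below are given for the 163 members with a measurement of their own. Leaving out the 15 was decided after their values were seen.

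Antisense RNAs were scarce in these cells. The median of the mean level over both conditions was 1.17 FPKM, with quartiles of 0.770 and 2.16 FPKM, against 15.6 FPKM for protein-coding genes past the same limit. The highest were Rab26os at 46.2 FPKM under normoxia and 57.7 under hypoxia, Brip1os at 40.3 and 29.9 FPKM, and Gt(ROSA)26Sor at 17.8 and 21.4 FPKM, the transcript of the locus much used for inserting transgenes. After these came 1600020E01Rik at 9.78 and 14.4 FPKM, from a start 74 bases from that of Pcbp1, a gene for an RNA-binding protein. The plot of levels shows most members packed below 3 FPKM, where the values scatter widely around the line of equal levels.

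**Figure D1:**
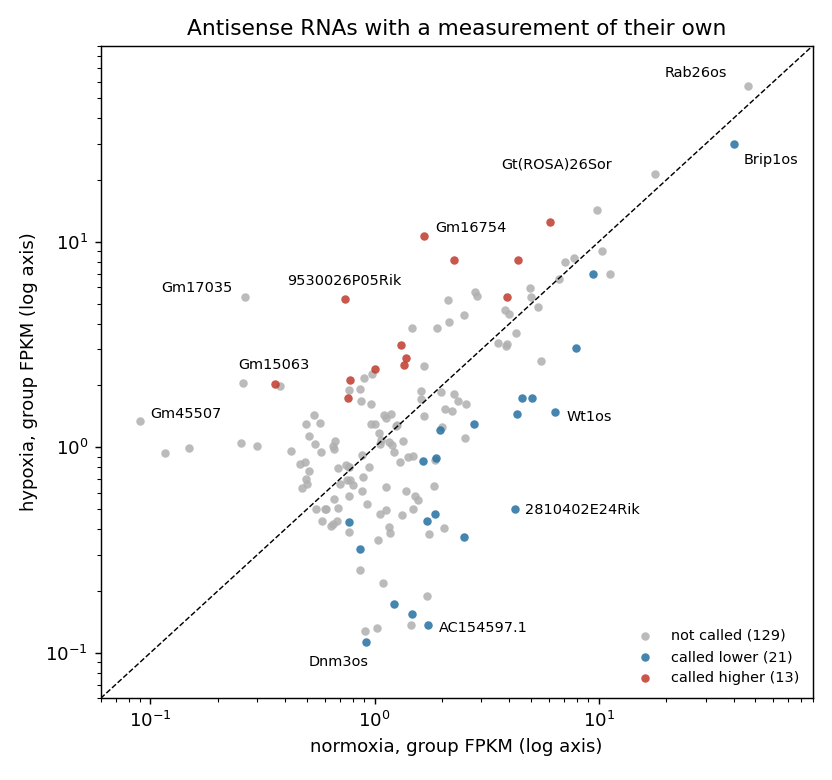
Level of each of the 163 antisense RNAs with a measurement of its own, as the authors' group FPKM in normoxia (horizontal, log axis) and hypoxia (vertical, log axis). Each point is 1 antisense RNA, the dashed line marks equal levels, and colours give the call of the authors' deposited table: 13 higher in hypoxia, 21 lower and 129 not called.

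In low oxygen 13 of the 163 antisense RNAs were called higher and 21 lower in the authors' deposited table. The share called was 20.9%, against 61.5% of tested measurements with a single gene name past the same limit. Of all tested measurements at any level, joint ones included, 57.9% were called. With the 15 joined rows the count was 40 of 178, or 22.5%, with 16 higher (8.99%) and 24 lower (13.5%), and at q below 0.01 the split of these was 15 higher and 15 lower. By direction, 7.98% of the antisense RNAs were called higher and 12.9% lower, against 31.1% and 30.4% of tested single-name measurements past the limit. Protein-coding genes were called in 64.7% of cases, 32.2% higher and 32.5% lower, and intergenic long noncoding RNAs in 60.4%. The difference between classes was not tested.

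The gap was widest among scarce transcripts. Between 0.5 and 2 FPKM, 17 of 116 antisense RNAs were called, which is 14.7%, against 58.7% of protein-coding genes and 54.5% of intergenic long noncoding RNAs at the same level. Between 2 and 5 FPKM the antisense share was 34.5%, and the others were 65.2% and 70.6%. Between 5 and 20 FPKM it was 37.5% of only 16 antisense RNAs, against 66.0% and 42.1%.

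**Figure D2:**
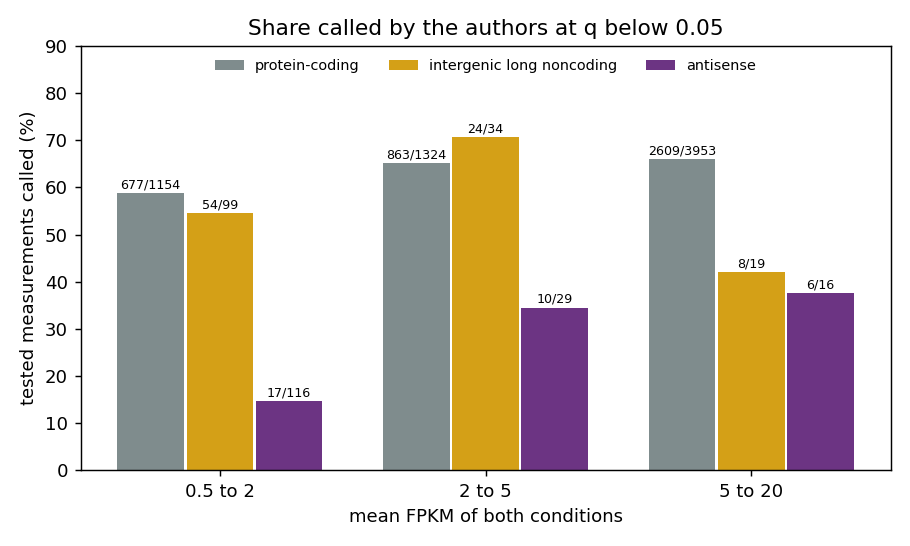
Share of tested measurements called by the authors at q below 0.05 (vertical, percent), by the mean FPKM over both conditions (horizontal, 3 ranges), for protein-coding genes, intergenic long noncoding RNAs and antisense RNAs. Numbers above the bars are called over tested, and the antisense bar is the lowest in all 3 ranges, from 14.7% to 37.5%.

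Few calls did not mean small differences in the listed values. A difference of at least 2-fold between the conditions, computed on FPKM plus 0.1, was found for 66 of the 163 antisense RNAs, or 40.5%. The share was 18.3% for protein-coding genes, which are mostly more abundant, and 39.6% for intergenic long noncoding RNAs. At the same level, between 0.5 and 2 FPKM, the shares lay closer together, at 43.1%, 32.0% and 49.5% in this order. Of the 66 antisense RNAs, 25 were called and 41 were not by the authors' test. The widest difference of all, that of Gm17035, was among the uncalled. The median change was -0.12 on the log2 scale, computed on FPKM plus 0.1, with quartiles of -0.72 and 0.66. For tested single-name measurements past the limit it was -0.0011. Over all 178 members it was -0.12 too, but 0.0029 at a mean of 1 FPKM or more, so the median has no stable direction. The limit on the mean reads both conditions, so a member that is low in 1 of them passed through the other, and these counts are descriptions.

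The share called also differed by whether the table gives a locus to several rows. Of the antisense RNAs, 147 had a locus that the table also gives to another row, and 28 of these were called, which is 19.0%. The other 16 had a locus of their own, and 6 of them were called, or 37.5%, with 5 higher (Gm13375, AV099323, Med9os, Gm14286 and Gm11520) and 1 lower (BC051226). Intergenic long noncoding RNAs between 0.5 and 2 FPKM showed a like split, at 28.6% with a shared locus and 68.8% with a locus of their own, while protein-coding genes at that level had 52.0% and 64.5% and antisense RNAs 13.2% and 30.0%. Exon overlap with the sense gene split the members in a similar way: 20 of the 119 with overlapping exons were called, or 16.8%, and 13 of the 40 without overlap, or 32.5%. The part of shared loci and of overlapping exons in the low share of calls was not tested.

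Among the 13 members called higher, the rise was widest for 9530026P05Rik (chr6:92940329-93272979, plus strand, GRCm38). This gene has 14 exon blocks, merged over its annotated transcripts, starts inside Adamts9 and runs away from it. It was listed at 0.739 FPKM under normoxia and 5.26 under hypoxia, which is 7.12-fold higher (q = 0.000638 in the authors' deposited table). Adamts9, a secreted metalloprotease, was called higher as well, from 5.30 to 9.40 FPKM, and no exons of the pair overlap.

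Gm16754 (chr9:21225371-21233046, plus strand) was listed at 1.67 and 10.7 FPKM, 6.39-fold higher (q = 0.00167 in the authors' deposited table). It runs into the end of Keap1, the adaptor protein that marks the stress factor Nrf2 for breakdown, and 510 bases of its 2611 exonic bases lie opposite Keap1 exons. Keap1 itself was called lower, at 24.6 and 16.9 FPKM. The antisense RNA and the sense gene were thus called in opposite directions. The part of reads from Keap1 in the Gm16754 values was not tested.

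Gm15063, which lies inside Rab39b on the X chromosome, was listed at 0.359 and 2.03 FPKM and was also called higher (q = 0.00211 in the authors' deposited table). Rab39b, a small GTPase of vesicle traffic, was called lower, at 2.13 and 1.59 FPKM. In hypoxia the antisense RNA was thus listed above its sense gene, and in normoxia below it. Of its 895 exonic bases, 634 lie opposite exons of Rab39b.

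2900093K20Rik is a single exon of 567 bases inside Oser1, a gene named for its response to oxidative stress, and none of it lies opposite an Oser1 exon (chr2:163419795-163420361, plus strand). The pair rose together: the antisense RNA was at 2.27 FPKM under normoxia and 8.19 under hypoxia, and Oser1 at 17.3 and 56.8 FPKM, which is 3.61-fold and 3.28-fold. The level of the antisense RNA relative to the sense gene was 13.1% in normoxia and 14.4% in hypoxia. Its q was 0.00178 in the authors' deposited table.

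Gm12454 leaves from inside Car9, the gene of a carbonic anhydrase at the cell surface that is a standard marker of low oxygen, and runs past the Car9 start (chr4:43504428-43508747, minus strand). It was listed at 4.39 and 8.14 FPKM (q = 0.00814 in the authors' deposited table), 1.86-fold higher, while Car9 went from 5.20 to 43.5 FPKM, 8.37-fold higher. Both were called higher, but the antisense RNA was at 84.4% of the Car9 level in normoxia and 18.7% in hypoxia. Of its 1082 exonic bases, 214 lie opposite Car9 exons.

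A further group of risers starts close to a gene that points the other way. Gm11520 starts 183 bases from Kat7, a histone acetyltransferase gene, and was at 1.01 and 2.40 FPKM while Kat7 was at 39.2 and 71.3 FPKM. AV099323 starts 43 bases from Pcna, the clamp that holds DNA polymerase on its template, and was at 1.36 and 2.52 FPKM while Pcna was at 299 and 355 FPKM. Both genes of both pairs were called higher. Med9os starts 64 bases from Med9, a Mediator subunit gene, and rose from 1.38 to 2.74 FPKM with Med9 uncalled at 18.8 and 19.8 FPKM. Gm13375, 173 bases from Arhgap21, rose from 3.89 to 5.41 FPKM, with Arhgap21 uncalled at 27.6 and 23.2 FPKM. None of these 4 has exons opposite those of its neighbour.

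Other risers had a sense gene that was listed at 0 or not called. 2900009J06Rik was listed at 1.31 and 3.14 FPKM opposite Acmsd, an enzyme of tryptophan breakdown, and 1700124L16Rik at 0.777 and 2.13 FPKM opposite Ankrd53. Both sense genes are listed at 0 in both conditions, and so is the microRNA processing gene Dgcr8. Whether a listed 0 is an absent transcript or a failed estimate was not tested. 9130221H12Rik, inside the kinase gene Gsk3a, was at 6.05 and 12.5 FPKM with Gsk3a uncalled at 48.3 and 56.0 FPKM. Gm14286, at 0.765 and 1.73 FPKM, has no sense gene by the rule used here. The q-values of the 13 risers ran from 0.000139, the smallest in the table, to 0.0144 for Gm14286 in the authors' deposited table.

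Wt1os was among the members called lower. It starts 19 bases from Wt1, a transcription factor of kidney and mesothelium development. Wt1os has 8 exon blocks, merged over its annotated transcripts, across chr2:105076538-105126510 on the minus strand. It was listed at 6.41 FPKM under normoxia and 1.48 under hypoxia, 4.33-fold lower, and Wt1 at 149 and 52.3 FPKM, 2.85-fold lower. Both had the smallest q of the authors' deposited table, 0.000139, and their exons do not overlap.

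Dnm3os is a transcript inside Dnm3, the gene of a dynamin that cuts vesicles from membranes, and it is the host of a pair of microRNA genes known for roles in fibroblasts and skeletal development (chr1:162217623-162225550, plus strand). It was listed at 0.916 and 0.112 FPKM, 8.17-fold lower (q = 0.000139 in the authors' deposited table). Dnm3 itself was called higher at a low level, 0.276 and 0.819 FPKM (q = 0.0461 in the authors' deposited table), so the level of the host transcript was above its sense gene in normoxia and below it in hypoxia. The poly-A libraries do not measure the mature microRNAs, whose level was not analysed here. Dnm3os was the only member of the 163 with microRNA genes on its own strand. The sequences, from RefSeq for GRCm38.p6 and written 5′ to 3′, show what this locus encodes, with the seed, bases 2 to 8, in capitals.
mmu-miR-199a-5p: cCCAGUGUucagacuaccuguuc
mmu-miR-199a-3p: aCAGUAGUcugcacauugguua
mmu-miR-214-5p: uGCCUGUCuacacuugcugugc
mmu-miR-214-3p: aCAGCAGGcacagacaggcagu
No seed is shared among these 4.

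Dlx4os, beside the homeobox gene Dlx4, fell from 5.05 to 1.74 FPKM with Dlx4 uncalled at 8.37 and 9.25 FPKM (q = 0.000139 for Dlx4os in the authors' deposited table). Gm2415 fell from 4.30 to 1.45 FPKM opposite the integrin gene Itga9, which was near 0 at 0.0188 and 0.0275 FPKM. AC154597.1, named Gm47547 in GENCODE M21, showed the widest called fall, from 1.73 to 0.137 FPKM or 12.6-fold, opposite Dydc2 at 0.0365 and 0.0640 FPKM. Both sense genes were listed below their antisense RNA in both conditions.

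Falls of more than 5-fold were also called for transcripts beside expressed genes that were themselves uncalled. 2810402E24Rik, which starts 54 bases from the ubiquitin protease gene Usp54, was at 4.21 and 0.501 FPKM, with Usp54 at 6.75 and 7.19 FPKM. Gm16365, running into the Src-family kinase gene Fyn, was at 1.47 and 0.154 FPKM, with Fyn at 20.6 and 19.6 FPKM. C330011M18Rik, which starts 453 bases from the transcription factor gene Rfx1, was at 1.22 and 0.173 FPKM, with Rfx1 at 9.67 and 9.30 FPKM. Gm26737 was at 2.50 and 0.365 FPKM beside the ubiquitin ligase gene Rnf26 at 39.0 and 41.6 FPKM. The q-values of these 4 ran from 0.00348 to 0.0457 in the authors' deposited table. Gm26782, beside the telomerase-associated gene Tep1, fell from 7.96 to 3.05 FPKM with Tep1 uncalled at 7.19 and 6.04 FPKM.

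Among transcripts of expressed signalling genes, 6330403L08Rik fell from 1.86 to 0.476 FPKM while Pdgfa, a growth factor for fibroblasts, rose from 14.6 to 18.6 FPKM. It starts inside Pdgfa, with 813 bases opposite Pdgfa exons. Gm4419 fell from 1.71 to 0.437 FPKM together with Ywhaq, a 14-3-3 protein gene, at 103 and 79.7 FPKM. Gm10516 fell from 0.857 to 0.321 FPKM while Rcor3, of a family of transcriptional corepressors, rose from 4.70 to 7.29 FPKM. Called falls of small size were those of BC051226, from 9.41 to 7.02 FPKM beside the histone chaperone gene Daxx, and of the abundant Brip1os, from 40.3 to 29.9 FPKM or 1.35-fold (q = 0.00369 for Brip1os in the authors' deposited table). Brip1, a DNA helicase that works with Brca1 and starts 177 bases away, was called higher at 9.59 and 14.4 FPKM, so Brip1os stayed above its sense gene in both conditions. Further called falls were those of 6330418K02Rik, from 4.55 to 1.73 FPKM beside Gal3st4, of Gm26982, from 1.88 to 0.884 FPKM opposite the ghrelin gene Ghrl, which was at or near 0, and of Gm10069, from 0.770 to 0.431 FPKM.

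The 29 members whose symbols end in os or as, most of them named after a coding gene, are the best known part of the class. Of these 29 members, 1 rose (Med9os), 4 fell (Wt1os, Dnm3os, Dlx4os and Brip1os) and 24 were not called in the authors' deposited table, against the 7.98% and 12.9% of all 163. The listed value was lower in hypoxia for 19 of the 29, with a median of -0.41 on the log2 scale, computed on FPKM plus 0.1. The Hox clusters, whose genes pattern the body axis, gave 4 uncalled members: Hoxb3os at 0.969 and 1.30 FPKM, Hoxb5os at 0.690 and 0.505 FPKM, Hoxd3os1 at 1.49 and 0.910 FPKM, and Hoxaas3 at 2.07 and 1.54 FPKM. Of their sense genes, Hoxb3 was called lower, at 6.01 and 2.63 FPKM, and Hoxb5 was not called, at 1.95 and 2.32 FPKM. The sense genes of Hoxaas3 and Hoxd3os1 were measured jointly with further genes. The joint measurement that holds Hoxa2 and Hoxa3 was called lower, at 10.3 and 6.49 FPKM. The one that holds Hoxd3 and Hoxd4 was not called, at 3.37 and 2.76 FPKM.

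Several uncalled os members stand beside sense genes that moved. Hk1os was at 2.15 and 4.08 FPKM (q = 0.472 in the authors' deposited table) inside Hk1, the hexokinase that starts glycolysis, which rose from 33.5 to 132 FPKM. Runx2os1 was at 1.01 and 1.30 FPKM inside the bone transcription factor gene Runx2, which rose from 6.24 to 12.7 FPKM. Sp3os was at 11.3 and 6.97 FPKM (q = 0.407 in the authors' deposited table) beside the transcription factor gene Sp3, which rose from 40.0 to 48.9 FPKM. Etaa1os was at 0.649 and 0.421 FPKM and Etaa1, a replication stress protein gene, rose from 7.96 to 13.2 FPKM.

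Sense genes that fell beside uncalled os members included Map2k3, a kinase of the p38 pathway, at 37.7 and 24.9 FPKM with Map2k3os at 0.880 and 0.612 FPKM (q = 0.0613 for Map2k3os in the authors' deposited table). Atad3a, a mitochondrial membrane ATPase gene, fell from 24.6 to 17.1 FPKM with Atad3aos at 1.41 and 0.901 FPKM. Taco1, a translational activator of a respiratory chain subunit in mitochondria, fell from 8.26 to 4.50 FPKM with Taco1os at 0.659 and 0.985 FPKM. Frmd8 fell from 27.2 to 14.7 FPKM with Frmd8os at 0.467 and 0.830 FPKM, and the homeobox gene Dlx6 from 4.97 to 2.09 FPKM with Dlx6os1 at 0.772 and 0.578 FPKM. The values of the antisense RNA lay on either side of no change among these 5.

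The remaining os members, none called, covered a wide span of ratios. Arhgap27os2 was at 0.260 and 2.05 FPKM (q = 0.0905 in the authors' deposited table) with 1055 bases opposite exons of Arhgap27, at 3.23 and 2.38 FPKM. Lrp8os2 was at 1.03 and 0.132 FPKM (q = 0.0721 in the authors' deposited table) inside the lipoprotein receptor gene Lrp8, at 8.57 and 10.5 FPKM. Values also differed widely for Zbtb11os1, at 1.75 and 0.380 FPKM, and Appbp2os, at 1.09 and 0.219 FPKM. Nearly level values were listed for Rab10os, at 10.3 and 8.99 FPKM, and Chrna1os, at 0.773 and 0.800 FPKM. Tnfsf13os was at 3.84 and 3.11 FPKM, Ccdc142os at 1.85 and 0.865 FPKM, Dmrta2os at 0.489 and 0.848 FPKM, and Zfp335os at 2.21 and 1.51 FPKM. Some of their sense genes moved too: Zfp335 was called higher, at 9.99 and 14.1 FPKM. The joint measurement that holds Zbtb11 was called higher, at 684 and 964 FPKM, and the one that holds Tnfsf13 lower, at 35.2 and 22.3 FPKM.

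To set each antisense RNA beside its partner, a sense gene was taken by name, or else as the protein-coding gene with the largest overlap on the opposite strand, or else as one whose start lies within 1000 bases on the opposite strand. This gave 144 pairs with a sense gene measured alone: 23 by name, 111 by overlap and 10 by a near start. Of the others, 15 had a sense gene measured jointly with further genes and 4 had none. The sense genes were called about as often as coding genes in general: 84 of 128 distinct tested sense genes were called, 49 higher and 35 lower, which is 65.6%, against 64.7% of all protein-coding genes. Most of these changes met an uncalled antisense RNA: 39 pairs had only the sense gene called higher and 29 only the sense gene called lower.

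Both genes were called in 16 pairs, 9 in the same direction and 7 in opposite directions. Rising together were 2900093K20Rik with Oser1, 9530026P05Rik with Adamts9, AV099323 with Pcna, Gm11520 with Kat7 and Gm12454 with Car9. Falling together were Wt1os with Wt1, Gm4419 with Ywhaq, 1500002C15Rik with Ssu72, and 2510046G10Rik with Sgf29. Ssu72, a phosphatase of the RNA polymerase II tail, was at 59.8 and 34.7 FPKM and its partner at 2.77 and 1.30 FPKM. Sgf29, a subunit of the SAGA chromatin complex, was at 17.5 and 11.7 FPKM and its partner at 1.65 and 0.857 FPKM (q = 0.0429 for 2510046G10Rik in the authors' deposited table).

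The 7 opposite pairs were Gm16754 with Keap1 and Gm15063 with Rab39b, where the antisense RNA rose, and Dnm3os with Dnm3, 6330403L08Rik with Pdgfa, Gm10516 with Rcor3, Brip1os with Brip1 and 1500015A07Rik with Afap1l1, where it fell. In the last pair the antisense RNA was at 1.95 and 1.22 FPKM and Afap1l1, an actin-associated protein gene, at 0.338 and 0.925 FPKM (q = 0.00254 and q = 0.000139 in the authors' deposited table). Exons overlap in 5 of these 7 pairs, all but those of Dnm3os and Brip1os, and in 4 of the 9 same-direction pairs. Counts this small do not separate same from opposite, and no test of that difference was made. With q below 0.01 for both genes the counts were 5 and 4.

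**Figure D3:**
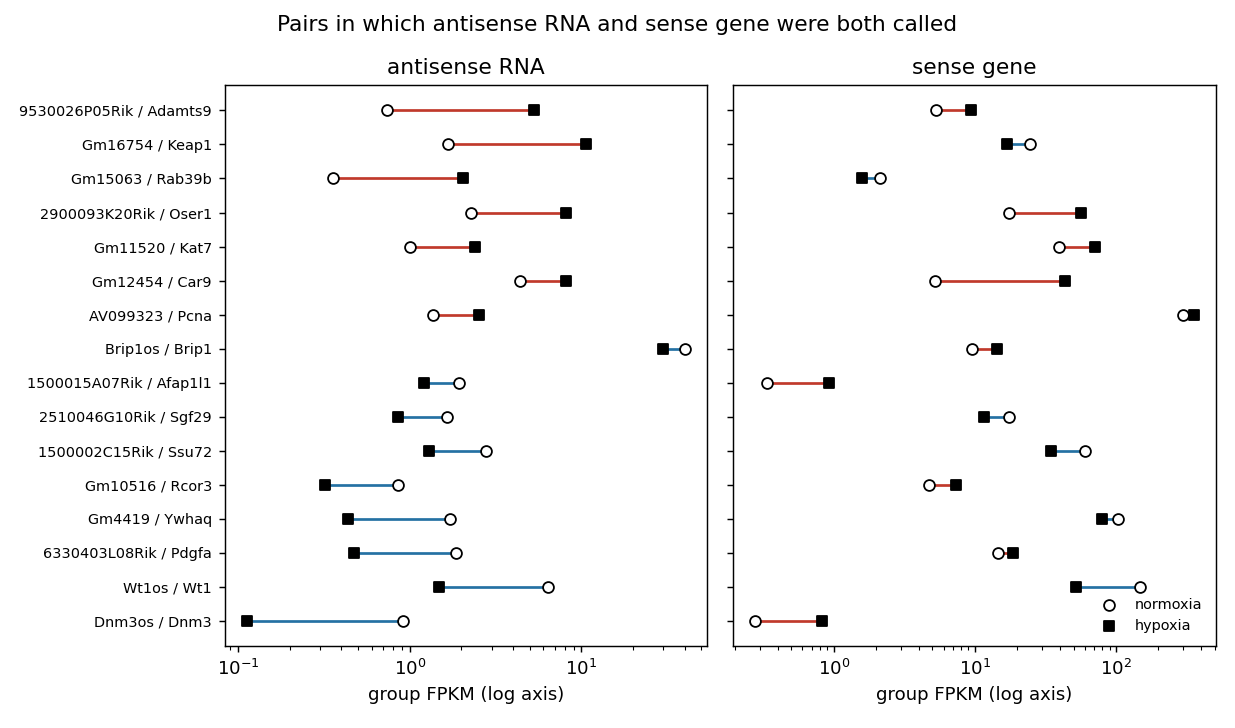
The 16 pairs in which both genes were called by the authors' deposited table, ordered by the change of the antisense RNA. Left, antisense RNA, right, sense gene, as group FPKM on log axes, with open circles for normoxia and filled squares for hypoxia, and red lines for a rise and blue for a fall. Line colours match in 9 rows and differ in 7.

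Over the 129 pairs with a tested sense gene, the log2 changes of the antisense RNA and of the sense gene had a Pearson correlation of 0.20 and a Spearman correlation of 0.10, given as a description across genes that share the same libraries. The listed values moved the same way in 68 of the 129. By position, the same 2 measures were 0.28 and 0.28 over 47 pairs whose starts lie within 1000 bases, and 0.36 and 0.40 over 14 pairs in which the antisense RNA starts inside the sense gene and runs past its start. They were 0.23 and 0.03 over 31 pairs with the antisense RNA wholly inside, and -0.13 and -0.23 over 32 pairs in which it runs into the end of the sense gene. With exon overlap they were 0.27 and 0.06 over 97 pairs, and without it 0.06 and 0.15 over 32 pairs. By position, and beside the 20.9% of all 163, antisense RNAs that start within 1000 bases of the sense start were called in 14 of 53 cases, 5 higher and 9 lower. Those that start inside the sense gene and run past its start were called in 5 of 18 cases, and those that run into its end in 9 of 42. Those that lie wholly inside it were called in 5 of 38 cases, 3 higher and 2 lower, and none of the 7 that span it were called.

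**Figure D4:**
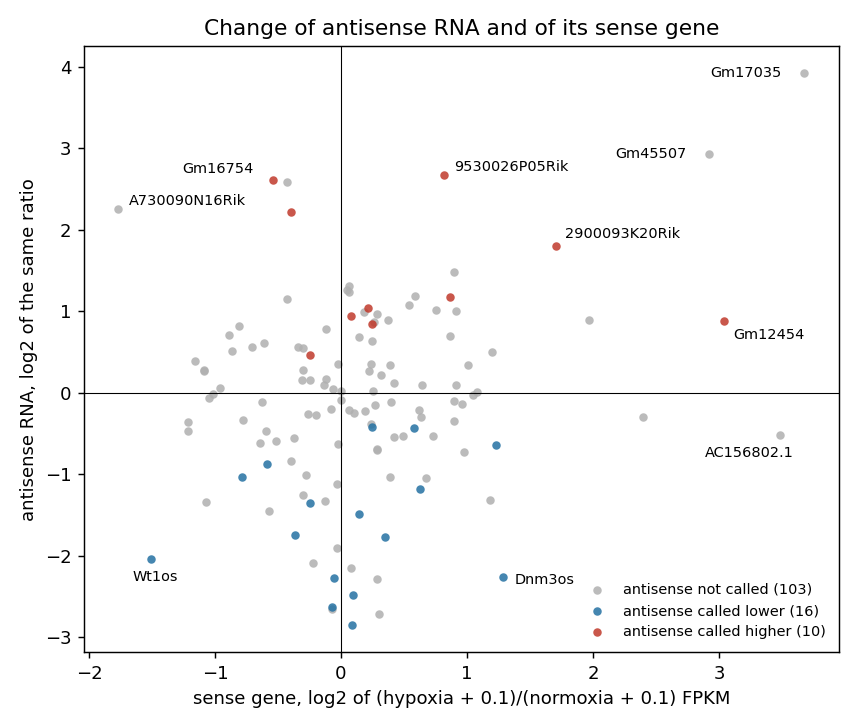
Change of the sense gene (horizontal) and of its antisense RNA (vertical) in 129 pairs, each as log2 of (hypoxia FPKM + 0.1) over (normoxia FPKM + 0.1). Points are pairs, coloured by the call of the antisense RNA in the authors' deposited table (10 higher, 16 lower, 103 not called), and they lie on all sides of the 2 zero lines, with Gm17035 and Gm45507 at the upper right.

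The upper right corner of that plot holds antisense RNAs of genes strongly raised by low oxygen. Gm17035 (chr15:66929607-66931107, plus strand) was listed at 0.263 FPKM under normoxia and 5.39 under hypoxia, a ratio of 20.5, but was not called (q = 0.0733 in the authors' deposited table). It lies inside Ndrg1, a stress-response gene that rose from 72.8 to 930 FPKM, and all 419 of its exonic bases lie opposite Ndrg1 exons. Its level was 0.362% of the Ndrg1 level in normoxia and 0.579% in hypoxia. Gm45507 was at 0.0895 and 1.34 FPKM (q = 0.281 in the authors' deposited table) inside Bnip3, a mitophagy receptor gene that rose from 62.2 to 471 FPKM, with 97.1% of its exonic bases opposite Bnip3 exons and a level of 0.144% and 0.284% of Bnip3.

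As a measure of how far such low shares occur where a sense gene is abundant, 29 antisense rows of any level were looked at. They have at least 200 exonic bases opposite a sense gene that reached 100 FPKM in at least 1 condition. Some of these sense genes, such as Ndrg1 and Bnip3, were below 100 FPKM in normoxia, and some, such as Erh at 66.5 FPKM, in hypoxia. Their median level was 0.158% of the sense gene in normoxia and 0.101% in hypoxia, with a maximum of 1.66% and 2.44%, and 3 were listed at 0 in both conditions. Gm17035 is among these 29 rows, and so is Gm45507. The part of reads from the sense gene in these values was not tested.

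Other antisense RNAs had lower listed values beside a sense gene raised at least 3-fold. AC156802.1, named Gm30177 in GENCODE M21, was at 0.637 and 0.413 FPKM inside Nrn1, which rose from 19.1 to 215 FPKM, and Gm20163 was at 2.25 and 1.82 FPKM where Exoc3l rose from 0.860 to 4.94 FPKM. Neither antisense RNA was called (q = 0.800 and q = 0.720 in the authors' deposited table). With Hk1os, 2900093K20Rik, Gm12454, Gm17035 and Gm45507, these make 7 pairs with so strong a rise, of which 2 had an antisense RNA called higher and none had one called lower, beside 7.98% and 12.9% of all 163.

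Promoter windows were examined for the core of the motif bound by hypoxia-inducible factors, ACGTG or GCGTG on either strand, in the 250 bases before to 50 bases after the start. RefSeq windows for GRCm38.p6 matched 90 of the 163 members by name. For some members the RefSeq start lay far from the GENCODE start, by 6002 bases for 9530082P21Rik and 5976 for Gm11457. For others, such as Wt1os, the distance was 0. A match was found in 43 of the 90, which is 47.8%, against 43.8% of all 32851 windows in the table. Among the matched members 3 of 7 called higher, 3 of 9 called lower and 37 of 74 uncalled had the motif. The members' windows were richer in G and C, at a median of 62.5% against 52.7%, and on the given strand alone the shares were 36.7% and 30.1%.

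The windows of 3 members that moved with their sense gene are printed 5′ to 3′ on the strand of the antisense RNA, with motif matches in capitals, to show the contrast among them. The window of 2900093K20Rik, which rose with Oser1, is chr2:163419521-163419820 on the plus strand and holds 6 matches, 4 of them in the palindrome CACGTG, which counts on both strands and so gives overlapping matches. That of Gm11520, which rose with Kat7, is chr11:95310166-95310465 on the plus strand, and that of Wt1os, which fell with Wt1, is chr2:105126461-105126760 on the minus strand, and neither holds a match. The starts of Kat7 and Wt1 lie inside these last windows.
2900093K20Rik: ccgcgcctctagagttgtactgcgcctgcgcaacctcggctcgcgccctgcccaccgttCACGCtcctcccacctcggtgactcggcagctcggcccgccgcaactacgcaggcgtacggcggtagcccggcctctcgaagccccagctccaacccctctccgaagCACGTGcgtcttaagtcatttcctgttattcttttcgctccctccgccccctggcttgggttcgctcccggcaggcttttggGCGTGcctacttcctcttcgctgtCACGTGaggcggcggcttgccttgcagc
Gm11520: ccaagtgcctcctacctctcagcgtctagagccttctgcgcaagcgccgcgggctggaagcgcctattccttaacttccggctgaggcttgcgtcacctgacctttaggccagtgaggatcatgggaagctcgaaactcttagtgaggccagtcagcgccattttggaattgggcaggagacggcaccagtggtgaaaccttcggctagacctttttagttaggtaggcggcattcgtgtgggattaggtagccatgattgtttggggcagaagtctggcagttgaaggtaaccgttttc
Wt1os: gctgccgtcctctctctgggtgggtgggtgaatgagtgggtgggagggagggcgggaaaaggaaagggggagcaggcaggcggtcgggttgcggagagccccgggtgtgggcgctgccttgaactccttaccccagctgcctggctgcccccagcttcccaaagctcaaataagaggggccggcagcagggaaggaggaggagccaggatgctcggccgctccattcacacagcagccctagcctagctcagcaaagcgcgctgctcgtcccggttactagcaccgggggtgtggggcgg
A match is a run of letters and not a bound site, and the lack of one says only that these letters are not in this window.

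Because unstable antisense RNAs are removed in the nucleus, the genes of nuclear RNA decay were also read. Of 27 listed symbols 22 were tested alone, and the authors' deposited table has 4 of them called higher, 7 lower and 11 not, with a median log2 change of -0.15. The fallers were led by core subunits of the exosome and the cap-binding complex: Exosc1 fell from 18.6 to 5.03 FPKM, Ncbp2 from 33.9 to 16.8 FPKM and Exosc5 from 25.8 to 14.7 FPKM. The risers were led by Zc3h3, at 4.16 and 9.98 FPKM, the exosome cofactor Mphosph6, at 44.2 and 80.3 FPKM, and Rbm7, the RNA-binding subunit of the nuclear exosome targeting complex, at 33.5 and 58.5 FPKM. Core subunits of the exosome did not all move the same way. Exosc8 was called higher, at 62.9 and 105 FPKM, Exosc2, Exosc3 and Exosc4 were called lower, and Exosc7 and Exosc9 were not called. The catalytic subunits Dis3 and Exosc10 were not called, at 24.3 and 23.3 FPKM and at 52.1 and 59.9 FPKM.

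Genes that edit, cut or sense double-stranded RNA, the form that a sense and an antisense transcript can make together, moved in both directions. Of 14 symbols 13 were tested, and the authors' deposited table has 5 of them called higher, 6 lower and 2 not. The median log2 change was -0.07 over all 14, which takes in the untested Dgcr8, listed at 0. The middle gene of the 13 tested, Adarb1, was at -0.13. Ago2, the slicing protein of RNA interference, rose from 11.1 to 28.4 FPKM, the Dicer partner gene Prkra from 21.0 to 32.0 FPKM and the sensor gene Ddx58 from 10.3 to 13.8 FPKM. Dicer1, which cuts double-stranded RNA, fell from 12.5 to 5.36 FPKM, the helicase gene Dhx9 from 68.8 to 26.8 FPKM, and Eif2ak2, the kinase that stops translation on sensing double-stranded RNA, from 18.9 to 7.50 FPKM. The shares called, 11 of 22 and 11 of 13, stand beside 64.7% of all protein-coding genes.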

How the data were processed

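RNA was sequenced from 3 normoxia and 3 hypoxia samples, grouped by the labels. The submitters' processing notes name the tools Cuffdiff 2.2.1, Cufflinks, HISAT2 2.1.0 and StringTie 1.3.4d and the build GRCm38. The authors deposited FPKM values, 1 per gene and condition with the replicates combined, together with their log2 fold change. Per the file headers, the deposited q-value and p-value stand beside a test score, which was left aside. Library scaling, strand setting and depth are not given in the sources used here, and no interval that needs depth is given. The fit to single samples written into the design for per-sample values was replaced by the authors' calls, q below 0.05 over all tested features of their table. The deposited log2 values equalled the ratio of the FPKM columns within 1.4e-05. The smallest q, 0.000139, is shared by 5148 measurements.

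From these values, python 3.11.15 with pandas 2.3.3 computed ratios, and log2 changes on FPKM plus 0.1. Coordinates and strands, 1-based, come from GENCODE M21 (GRCm38), which holds all 163 members with a measurement of their own, and promoters and microRNAs from RefSeq. The scripts were tested on simulated data. Named were the 12 widest called rises and falls, members ending in os or as, the 5 highest, pairs called in opposite directions, the sense genes of all these, and per pathway list the 3 widest called changes each way. The rows joined to a coding gene were left out of the naming. Others, among them Gm13375, Gm17035, Gm45507, AC156802.1, Gm20163, 1500002C15Rik, 2510046G10Rik, BC051226, Gm26982, Gm10069, 6330418K02Rik, Dis3 and Exosc10, were added after their values were seen. The other exosome core subunits, Exosc2, Exosc3, Exosc4, Exosc7, Exosc8 and Exosc9, were also added after their values were seen. The members and lists were chosen with earlier results of these data known. Alternatives covered the q threshold, the fold, the level limit, the pseudocount, the scaling, shared loci and the sense gene rule.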

Additional observations from a re-analysis of the deposited data

How the results depend on the processing

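The count of 40 called members of 178 stayed within 1.5 times of that value with q below 0.01 (30), with at least 2-fold (29), at 1 FPKM or more (34 of 112), without a level limit (53) and, an alternative added after seeing the data, for members with a measurement of their own (34). The split of 16 higher and 24 lower was 15 and 15 with q below 0.01, 11 and 18 with at least 2-fold, 16 and 18 at 1 FPKM or more, and 17 and 36 without a level limit. Among the 16 members whose locus no other row shares it was 6, with 5 higher and 1 lower, by construction from fewer members. The median log2 change of -0.12 was -0.062 with a pseudocount of 1, -0.13 with 0.01 and -0.14 over 1109 rows without a level limit. At a mean of at least 1 FPKM it reversed to 0.0029, so no direction of the median is reported. The 9 same-direction and 7 opposite pairs became 5 and 4 at q below 0.01, 9 and 4 where both genes reached 1 FPKM, and 6 and 6 among pairs that overlap. The promoter share of 47.8% was 36.7% on 1 strand. Another pseudocount cannot change the direction of a member, since the same value is added to both conditions. Median-of-ratios scaling, also added after seeing the data, had a factor of 1.00, too near to no scaling to change a direction. Neither alternative is therefore a check on the directions of the members named by the rule. No paired analysis was possible because the deposited table holds 1 value per condition, and leaving out single replicates was not run for the same reason. Unknown depth limits the reading of scarce members.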

Other observations

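In 24 of the 144 pairs the antisense RNA was listed at a higher mean level than its sense gene. Besides Brip1os, Gm2415 and AC154597.1, these included C130021I20Rik beside Lmx1b, a transcription factor of limb patterning, at 5.36 FPKM against 2.32 FPKM in normoxia, and Gm13205 beside the zinc finger gene Casz1 at 7.77 against 5.19 FPKM. These 2 were chosen after their values were seen, and neither antisense RNA was called in the authors' deposited table. Below the level limit, 122 of 2492 antisense rows were tested by the authors, and 13 were called in the authors' deposited table, 1 higher and 12 lower. Of all tested measurements 57.9% were called, 28.9% higher and 29.0% lower.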
